A study of Mus musculus with 20 samples.

Results

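The SynDIG family is a small set of genes for related membrane proteins, of which Syndig1 is the founding member. Its 4 genes in the mouse, Syndig1, Syndig1l, Tmem91 and Prrt1, were followed here in the cerebellum of mice with an expanded ataxin-3. They are 4 of the 29200 genes in the count table, and 3 of them were among the 12153 genes that averaged 50 counts or more per library and were tested. The family was chosen by the measured genotype difference of Syndig1l in these same mice, and the other 3 members were added as its relatives. The genotype differences of Syndig1l are therefore given as a description with no test, whereas the other members were tested. RNA-seq was performed on cerebella of male C57BL6/N mice, 5 in each of 4 groups. The WT/WT mice carried wild-type alleles only, and the 304Q/304Q mice carried the expanded repeat in both alleles, each genotype at 2 and at 12 months of age. The expansion lies in the endogenous mouse Atxn3, the gene mutated in spinocerebellar ataxia type 3, and has 304 repeats per the labels. The labels speak of CAG repeats and name the wild-type alleles after ataxin-2, whereas the methods of the study describe Atxn3, an interrupted repeat, and a single knock-in line of this length whose wild-type littermates served as controls.

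AMPA receptors are the glutamate-gated channels that carry most fast excitatory transmission in the brain. Around their pore-forming subunits stand auxiliary subunits, proteins that assemble the receptor and bring it to the surface, scaffolds that hold it at the synapse, and organisers that align both sides of the synapse. Syndig1 encodes a transmembrane protein of excitatory synapses that binds AMPA receptors and promotes synapse development. Prrt1, also called SynDIG4, associates with AMPA receptors largely outside the synapse and is needed for normal synaptic plasticity. Syndig1l, also called SynDIG2 or capucin, was first described as a transcript enriched in the caudate and putamen, and its function is less well known. The role of the protein of Tmem91, also called SynDIG3, is not well established.

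The members share their carboxy-terminal part, so the last 150 coding bases of each before the stop codon, all within 1 exon, are shown here as the stretch the family has in common. They are printed 5′ to 3′ on the coding strand from the GENCODE M21 transcripts of GRCm38. Capitals mark bases that are identical in the aligned end of Syndig1l, or, for Syndig1l itself, in that of Syndig1.
Syndig1: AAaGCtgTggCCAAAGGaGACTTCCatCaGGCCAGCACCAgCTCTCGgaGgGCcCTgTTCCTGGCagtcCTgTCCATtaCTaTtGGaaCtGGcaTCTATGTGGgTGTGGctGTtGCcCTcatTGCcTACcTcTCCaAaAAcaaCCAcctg
Syndig1l: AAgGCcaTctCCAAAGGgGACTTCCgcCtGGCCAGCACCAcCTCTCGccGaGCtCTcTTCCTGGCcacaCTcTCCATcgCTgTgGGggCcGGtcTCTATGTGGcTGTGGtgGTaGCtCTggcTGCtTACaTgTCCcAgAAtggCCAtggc
Tmem91: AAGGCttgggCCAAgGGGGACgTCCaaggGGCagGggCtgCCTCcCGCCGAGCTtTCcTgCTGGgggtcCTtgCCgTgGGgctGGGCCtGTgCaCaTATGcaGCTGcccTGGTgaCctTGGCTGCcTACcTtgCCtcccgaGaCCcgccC
Prrt1: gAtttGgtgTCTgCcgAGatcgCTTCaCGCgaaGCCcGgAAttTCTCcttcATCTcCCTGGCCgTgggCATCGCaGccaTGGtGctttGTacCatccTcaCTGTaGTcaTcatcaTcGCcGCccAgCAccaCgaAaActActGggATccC
Over these ends, 101 of 150 bases were the same in Syndig1 and Syndig1l, an identity of 67.3%. That of Syndig1 was 53.3% with Tmem91 and 49.3% with Prrt1. The identity with Syndig1l was 60.1% for Tmem91 (89 bases) and 53.2% for Prrt1 (75 bases, over 141 aligned). The whole coding sequences are 774 bases long for Syndig1, 711 for Syndig1l, 516 for Tmem91 and 918 for Prrt1. Syndig1 and Syndig1l were 64.9% identical over 696 aligned coding bases, and their longest identical run was 29 bases. As a share of aligned bases, with gaps left out, the identity with the shorter Tmem91 was 68.5% for Syndig1, 66.9% for Syndig1l and 67.5% for Prrt1. These alignments covered fewer bases (515, 514 and 511), and their longest identical runs were 9, 9 and 11 bases. The shares over whole coding sequences therefore do not rank the pairs. The identity of Prrt1 was 55.6% with Syndig1 and 58.5% with Syndig1l. No stretch of 50 bases in the transcripts of Syndig1, Syndig1l or Prrt1 was found in another gene on the same strand, so a read of 50 bases or more from one of these transcripts would not match another gene in full on that strand. For Tmem91, 17 of 3635 such stretches were shared with other genes on the same strand.

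The stretches shown lie on chromosome 2 from 150003183 to 150003332 on the plus strand for Syndig1, and on chromosome 12 from 84678720 to 84678869 on the minus strand for Syndig1l. That of Tmem91 lies on chromosome 7 from 25669343 to 25669492 on the minus strand, and that of Prrt1 on chromosome 17 from 34632108 to 34632257 on the plus strand. The 4 genes lie on 4 chromosomes. Syndig1 (ENSMUSG00000074736) spans 149829211 to 150004392 on chromosome 2, Syndig1l (ENSMUSG00000071234) 84677277 to 84698831 on chromosome 12, Tmem91 (ENSMUSG00000061702) 25669139 to 25675166 on chromosome 7, and Prrt1 (ENSMUSG00000015476) 34629533 to 34633126 on chromosome 17. Genes on the opposite strand overlap the exons of 3 members. They are C530025M09Rik over 290 exonic bases of Syndig1, Gm48573 over 177 of Syndig1l and Exosc5 over 355 of Tmem91. Whether the counting used the strand is not stated, so that some reads of these members could belong to the opposite gene. C530025M09Rik was low, at 0.468 to 2.79 CPM (counts per 1000000 counts of the scaled library) in all mice, and Exosc5 lay between 14.3 and 23.5 CPM. Exosc5 averaged 240.8 counts per library, beside 35.0 for Tmem91. No level was available for Gm48573.

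The libraries held between 11385380 and 27636687 counts on genes, with a median of 13522932. All pairs of replicates differed by more than sampling noise. In 6 libraries (304Q/304Q replicate 3 at 2 months, WT/WT replicates 1, 2 and 5 at 12 months, and 304Q/304Q replicates 1 and 3 at 12 months) markers of the choroid plexus, the tissue that makes cerebrospinal fluid, summed to between 418.5 and 2126.9 CPM, against 23.7 to 43.8 CPM in the other 14. Values without these 6 libraries are given beside the results. At 12 months they rest on WT/WT replicates 3 and 4 and 304Q/304Q replicates 2, 4 and 5 only. The targeted gene Atxn3 averaged 19.6 ± 2.96 CPM (SD, n = 5) in the WT/WT group and 13.5 ± 2.17 in the 304Q/304Q group at 2 months, and 15.6 ± 1.12 and 14.3 ± 1.24 at 12 months. The 2 genotypes overlapped in this level, so it does not check the label of each mouse.

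Prrt1 was the most abundant member and Tmem91 the least, with 15 to 85 counts per library. Per kilobase of merged exons, the mean level over the 20 mice was 119.6 ± 9.67 CPM for Prrt1, 43.3 ± 4.36 for Syndig1, 10.2 ± 3.18 for Syndig1l and 0.689 ± 0.231 for Tmem91 (SD, n = 20). The ranges of the members did not overlap on this scale. Among the 11713 protein-coding genes tested, these levels stood at percentile 98.1, 92.0, 60.4 and 1.5. The order was the same with the length of the longest coding transcript, where the levels were 142.2, 51.3, 12.4 and 2.79 CPM per kilobase.

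**Figure D1:**
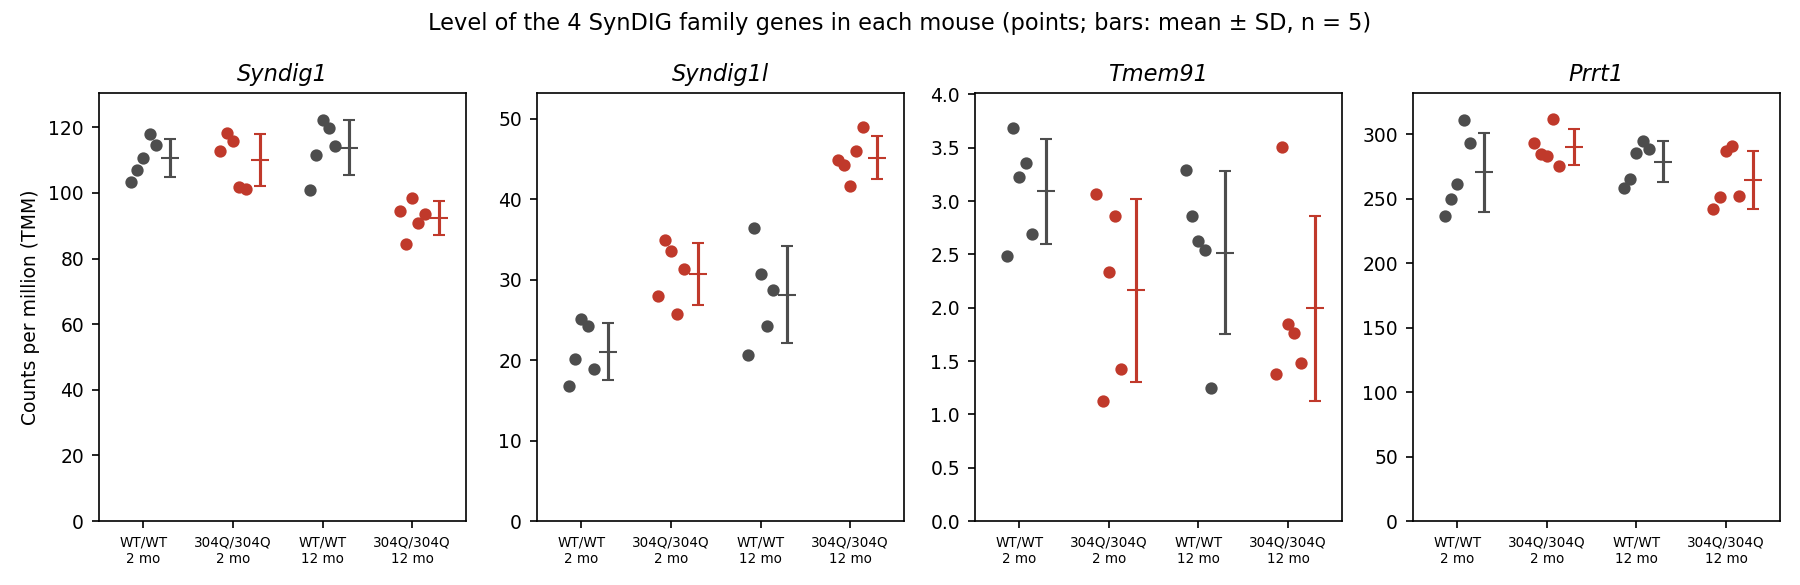
Level of each SynDIG family gene in CPM (y axis, from 0) in every mouse of the 4 groups (x axis), with the mean ± SD to the right (n = 5). Syndig1 was lowest in 304Q/304Q mice of 12 months (84.5 to 98.5 CPM), and Syndig1l was highest there (41.7 to 49.0 CPM).

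Syndig1, the founding member, fell in 304Q/304Q mice relative to their WT/WT controls at 12 months, and no difference was detectable at 2 months. At 2 months, the 5 WT/WT mice had 103.26, 106.94, 110.62, 118.06 and 114.5 CPM. The 5 304Q/304Q mice of that age had 112.9, 118.23, 115.96, 101.72 and 101.28 CPM. The groups overlapped across nearly their whole range at 2 months, with means of 110.7 ± 5.88 and 110.0 ± 8.0 CPM. At 12 months, the WT/WT mice had 100.93, 111.64, 122.23, 119.69 and 114.45 CPM. The 304Q/304Q mice of 12 months had 94.58, 84.48, 98.53, 90.75 and 93.51 CPM. Each of these 5 mice lay below each of the 5 WT/WT mice of the same age, although the gap between the groups was small, from 98.53 to 100.93 CPM.

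The log2 fold change of Syndig1 between the genotypes was -0.01 (standard error 0.061, 95% interval -0.13 to 0.12) at 2 months, and the adjusted p was 0.992 by the quasi-likelihood F-test of edgeR, adjusted over all tested genes by the method of Benjamini and Hochberg. For the older mice it was -0.30 (standard error 0.0615, 95% interval -0.43 to -0.17, adjusted p = 0.00175), a ratio of 0.812. Of all genes tested at 12 months, 7.3% were lower with an adjusted p of at most 0.05, 12.5% passed in either direction, and 5.43% were lower with no overlap between the groups. The change of Syndig1 did not reach the study's limit for a differentially expressed gene (DEG), a log2 change of 0.5 or more either way, which 3.09% of all genes met at 12 months. Without the 6 libraries with choroid plexus markers, the log2 fold change at 12 months was -0.44 (adjusted p = 0.00616). The WT/WT mice left at that age, replicates 3 and 4, had the highest Syndig1 levels of their group (122.23 and 119.69 CPM). The antisense gene C530025M09Rik averaged 1.59 ± 0.273 CPM in WT/WT and 1.02 ± 0.497 CPM in 304Q/304Q mice at 12 months, a difference of less than 1 CPM, beside group means of 113.8 and 92.4 CPM for Syndig1.

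With age, Syndig1 fell in the 304Q/304Q mice, by 0.25 on the log2 scale from 2 to 12 months (standard error 0.0613, adjusted p = 0.0105), and again the groups did not overlap. Among all genes, 4.18% were lower with age in these mice by the same test, and 4.2% were lower with no overlap. In WT/WT mice the change with age was 0.04 (standard error 0.0611, 95% interval -0.09 to 0.17, adjusted p = 0.713). The difference between the changes with age in the 2 genotypes, the interaction, was -0.29 (standard error 0.0866, 95% interval -0.47 to -0.11) and did not pass the test (adjusted p = 0.0832). It passed when WT/WT replicate 1 of 12 months (-0.33, adjusted p = 0.0224) or 304Q/304Q replicate 5 of 2 months (-0.32, adjusted p = 0.0469) was left out. The genotype and age contrasts share the 304Q/304Q mice of 12 months, so they are not independent of each other.

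Markers of several cerebellar cell types fell together with Syndig1 at 12 months. Of 12 Purkinje cell markers, 10 were lower in 304Q/304Q mice by adjusted p, where 7.3% of all genes were, and none was higher. The median log2 fold change was -0.39, against 0.00 over all genes. Their summed level ran from 7486.6 to 8249.8 CPM in WT/WT and from 5867.1 to 6399.1 CPM in 304Q/304Q mice, whereas at 2 months, with 7765.5 to 8648.3 and 7288.4 to 7950.5 CPM, no Purkinje marker passed by edgeR or DESeq2, or at an unadjusted p under 0.05. The part of these markers in the fall of Syndig1 was not tested. In bulk RNA, fewer cells of a type and less RNA per cell cannot be told apart.

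Syndig1l, whose coding end was more like that of Syndig1 than those of the other members, was higher in the RNA-seq counts of 304Q/304Q mice at both ages. At 2 months, the WT/WT mice had 16.81, 20.12, 25.11, 24.3 and 18.85 CPM. The 304Q/304Q mice of 2 months had 27.93, 34.88, 33.62, 25.79 and 31.38 CPM. The lowest 304Q/304Q mouse, at 25.79 CPM, was just above the highest WT/WT mouse, at 25.11 CPM. At 12 months, the WT/WT mice had 20.69, 36.4, 30.69, 24.28 and 28.75 CPM. The 304Q/304Q mice of 12 months had 44.9, 44.27, 41.7, 45.95 and 49.01 CPM. These 5 mice lay above each of the other 15, and had an SD of 2.66 CPM, against 6.03 CPM in the WT/WT mice of the same age. The study also measured Syndig1l by qRT-PCR and reported that this difference was not found there. At 2 months, it described a tendency to lower qRT-PCR levels for all genes measured, short of significance. For the Syndig1l protein, it reported minimal differences across genotypes and ages.

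The group means of Syndig1l were 21 ± 3.56 CPM in WT/WT mice of 2 months, 28.2 ± 6.03 in WT/WT mice of 12 months, 30.7 ± 3.82 in 304Q/304Q mice of 2 months and 45.2 ± 2.66 in 304Q/304Q mice of 12 months. The 2 groups in the middle of this order did not differ beyond their spread, and the 2 WT/WT groups overlapped. The ratio of 304Q/304Q to WT/WT was 1.46 at 2 months and 1.6 at 12 months, with 95% intervals of the log2 fold change from 0.28 to 0.81 and from 0.42 to 0.94. Across all genes, 0.494% were higher at 2 months and 3.51% at 12 months with no overlap between the genotypes. Since this contrast brought the family into view, nothing is read from those shares. Without the 6 libraries with choroid plexus markers the log2 fold changes were 0.51 and 0.75. The difference between the 2 genotype effects was 0.14 (95% interval -0.23 to 0.50), and is likewise given without a test.

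With age, Syndig1l rose in the 304Q/304Q mice by 0.56 on the log2 scale (standard error 0.123, adjusted p = 0.00455 from edgeR's test), with no overlap between the ages. It was a DEG in this contrast, as were 1.37% of all genes in the same direction, and 3.6% of all genes were higher with age without overlap. These mice, at both ages, are also the ones in which the genotype difference was seen, so this test is not independent of that choice. In WT/WT mice the rise was 0.42 (standard error 0.128, adjusted p = 0.0345), below the limit of a DEG, and the ages overlapped between 20.69 and 25.11 CPM. By adjusted p, 6.08% of all genes were higher with age in WT/WT mice. The WT/WT mice of both ages were the other side of that genotype difference, so this test is not independent of the choice either. The call in WT/WT mice was lost without the libraries with choroid plexus markers (0.38, adjusted p = 0.109), without WT/WT replicates 1, 2 or 5 of 2 months (0.35, 0.41 and 0.38, adjusted p = 0.106, 0.0804 and 0.0632), and without WT/WT replicates 2, 3 or 5 of 12 months (0.31, 0.39 and 0.42, adjusted p = 0.113, 0.0946 and 0.0712). In 304Q/304Q mice the rise ranged from 0.50 to 0.61 with any single library left out.

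**Figure D2:**
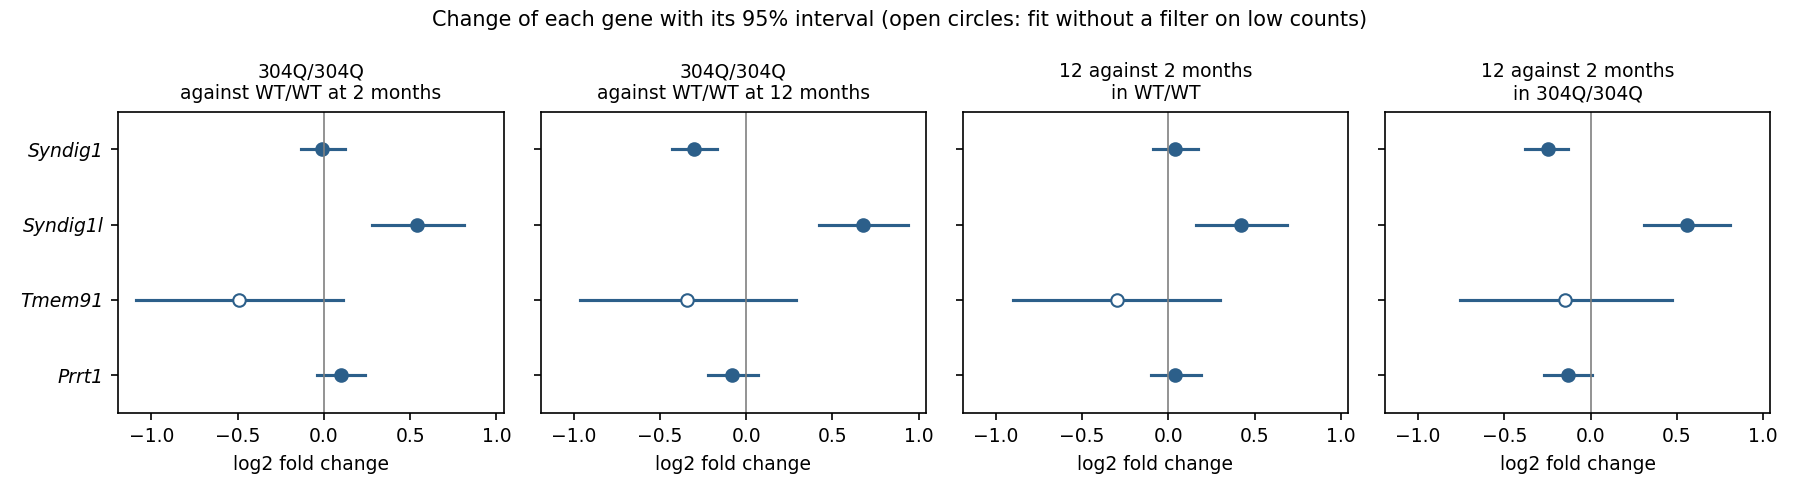
Log2 fold change (x axis) with its 95% interval for each SynDIG family gene (rows) in the 2 genotype and the 2 age contrasts (panels); Tmem91, as open circles, comes from the fit without a filter on low counts. Syndig1 and Syndig1l lie on opposite sides of 0 at 12 months (-0.30 and 0.68), and the intervals of Tmem91 and Prrt1 include 0 in each panel.

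The ratio of the 2 related transcripts within a library does not depend on how libraries are scaled. There were between 16.3 and 22.7 counts of Syndig1l per 100 counts of Syndig1 in WT/WT mice of 2 months, and between 20.3 and 32.6 in those of 12 months. In 304Q/304Q mice this number lay between 24.7 and 31.0 at 2 months and between 42.3 and 52.4 at 12 months. The group means were 19.0 ± 2.7, 24.7 ± 5.0, 27.9 ± 2.7 and 49.0 ± 4.3 in the same order (SD, n = 5). Syndig1 had more counts than Syndig1l in every mouse, and the excess was smallest in the 304Q/304Q mice of 12 months. This ratio holds the Syndig1l counts whose genotype difference chose the family, so the separation of its groups is a description only. Relative to Prrt1, Syndig1 had 39.1 to 42.8 counts per 100 counts in WT/WT and 31.2 to 39.1 in 304Q/304Q mice at 12 months, and 38 to 43.6 and 32.6 to 41.5 at 2 months.

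**Figure D3:**
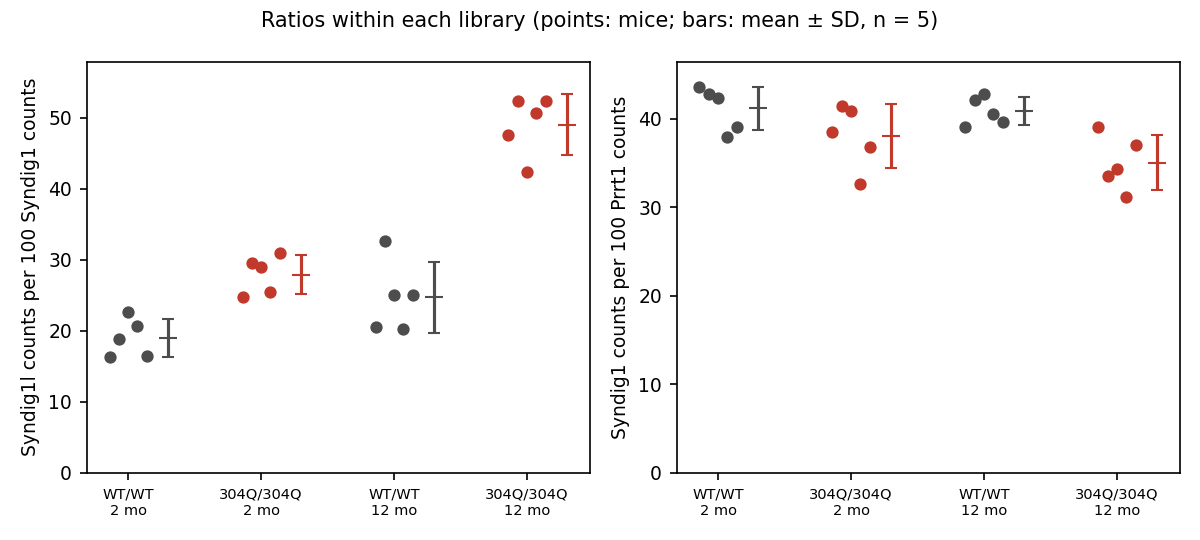
Counts of Syndig1l per 100 counts of Syndig1 (left, y axis from 0) and of Syndig1 per 100 counts of Prrt1 (right) in each mouse of the 4 groups (x axis), with the mean ± SD (n = 5). On the left, the 304Q/304Q mice of 12 months (42.3 to 52.4) lie above all others (16.3 to 32.6). Syndig1l was chosen for its genotype difference, so nothing is read from this separation.

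Prrt1, the member known from AMPA receptors outside the synapse, passed no test for genotype or age in the model of the 4 groups. At 2 months, the WT/WT mice had 236.59, 249.78, 261.14, 310.81 and 293.13 CPM. The 304Q/304Q mice of 2 months had 293.19, 284.64, 283.41, 311.94 and 275.31 CPM. At 12 months, the range was 258.4 to 294.9 CPM in WT/WT and 241.7 to 290.7 CPM in 304Q/304Q mice, so the groups overlapped at each age. The log2 fold change between the genotypes was 0.10 (95% interval -0.04 to 0.24, adjusted p = 0.922 from edgeR's test) at 2 months and -0.08 (-0.22 to 0.07, adjusted p = 0.512) at 12 months. With age it was 0.04 (-0.10 to 0.19, adjusted p = 0.722) in WT/WT and -0.13 (-0.27 to 0.01, adjusted p = 0.311) in 304Q/304Q mice. With a mean of 3935 counts per library, the 4 intervals for Prrt1 reach no farther than -0.27 and 0.24. With 3 surrogate variables in the model, the change with age in 304Q/304Q mice was -0.18 and passed (adjusted p = 0.0372).

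Tmem91 was too low for a firm statement. With a mean of 35.0 counts per library, it did not enter the main test, and its values come from a fit without a filter on low counts. The WT/WT mice of 2 months had 2.49, 3.69, 3.23, 3.36 and 2.69 CPM, and the 304Q/304Q mice of 2 months had 3.07, 1.13, 2.34, 2.86 and 1.43 CPM. At 12 months the WT/WT mice had 3.29, 2.86, 2.63, 2.54 and 1.25 CPM, and the 304Q/304Q mice had 1.38, 3.51, 1.85, 1.76 and 1.48 CPM. The groups overlapped at both ages. The log2 fold change between the genotypes was -0.49 (95% interval -1.09 to 0.11, adjusted p = 0.702) at 2 months and -0.34 (-0.96 to 0.29, adjusted p = 0.609) at 12 months in edgeR's test. Differences of this size were not detectable at this depth. With age, the log2 fold change was -0.30 (adjusted p = 0.634) in WT/WT and -0.15 (adjusted p = 0.922) in 304Q/304Q mice.

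The tested neighbours of Syndig1l on its chromosome were compared between the genotypes as well, as a description, since Syndig1l itself was chosen for its difference. It lies 17.2 Mb from the targeted Atxn3 on the same chromosome. Of 17 tested genes whose lower end lies within 500 kb of that of Syndig1l, none was a DEG between the genotypes at either age, by edgeR or by DESeq2, where 0.00823% of all genes at 2 months and 3.09% at 12 months were DEGs. Their log2 fold changes ran from -0.12 to 0.14 at 2 months and from -0.34 to 0.33 at 12 months, with a median of 0.03 at 12 months. At an unadjusted p under 0.05, 0 of them passed at 2 months and 2 at 12 months. At 12 months 1 of them, Ltbp2, had an adjusted p of at most 0.05 (-0.34, standard error 0.0878, adjusted p = 0.0121 from edgeR's test), where 12.5% of all genes did. Within 1000 kb there were 32 tested genes, with log2 fold changes at 12 months from -1.05, larger in size than the 0.68 of Syndig1l, to 0.33. Of these 32, Dnal1 and Ltbp2 had an adjusted p of at most 0.05 at 12 months, and neither was a DEG. The nearest neighbours were Abcd4, an ABC transporter active in vitamin B12 handling, at 75.8 kb (0.09 at 12 months), Npc2, which binds cholesterol in lysosomes, at 77.3 kb (-0.11) and Isca2, an iron-sulfur cluster assembly gene, at 96.0 kb (0.08).

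**Figure D4:**
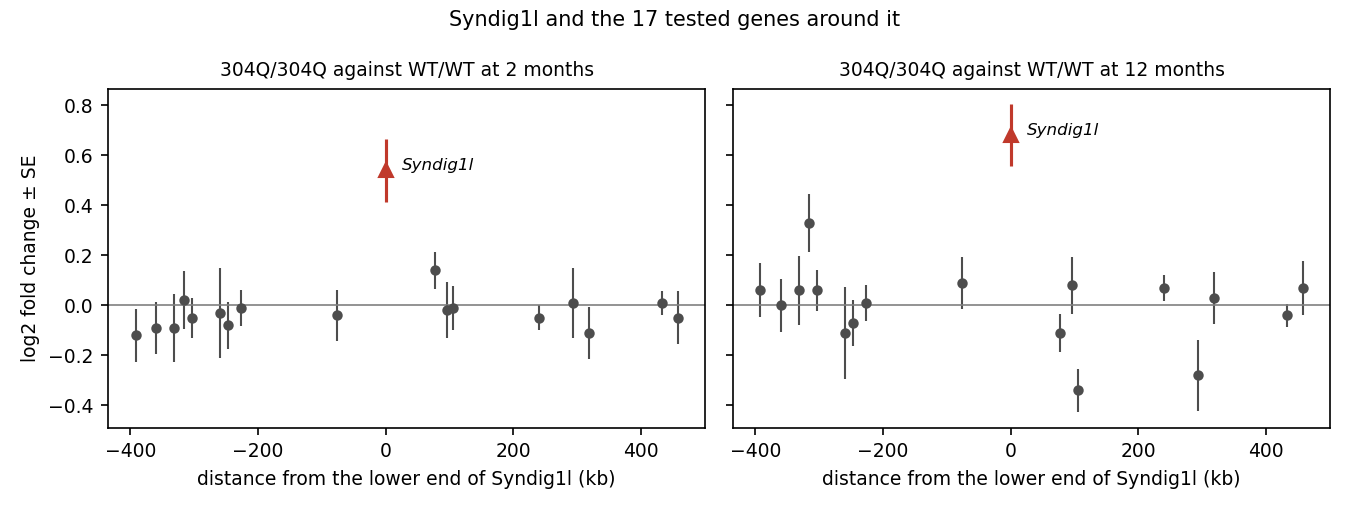
Log2 fold change ± standard error between the genotypes, 304Q/304Q relative to WT/WT (y axis), of Syndig1l (triangle) and of the 17 tested genes within 500 kb of it (points), against the distance between the lower ends in kb (x axis), at 2 months (left) and 12 months (right). The neighbours lie between -0.34 and 0.33 at 12 months, below Syndig1l at 0.68, which was itself chosen for its genotype difference.

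Around the other members, the share of neighbours that passed at 12 months can be read against the 12.5% of all genes. Syndig1 had 1 tested gene within 500 kb, Zfp120 (0.27 at 12 months, adjusted p = 0.0728), and 6 within 1000 kb, of which Acss1 and Entpd6 passed at 12 months. None of the 21 tested genes around Tmem91 had an adjusted p of at most 0.05 at either age by edgeR or DESeq2 (unadjusted p under 0.05 in 1 at 2 months and 3 at 12 months), the nearest being Exosc5 (-0.19 at 12 months), B9d2 (-0.15) and Tgfb1 (-0.43). Of 28 within 1000 kb of Tmem91, Grik5 passed at 12 months. Of 29 around Prrt1, which lies in the gene-dense major histocompatibility region, 4 passed at 12 months, a share near that of all genes, and the number was also 4 of the 62 within 1000 kb. Of these 4, Notch4 (-0.53) and the heat shock gene Hspa1b (-2.16) were DEGs. The nearest to Prrt1 were Ppt2 (-0.38, adjusted p = 0.0119), Fkbpl (0.10) and Atf6b (-0.17, adjusted p = 0.0864).

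Of the other genes of the AMPA receptor system, none differed between the genotypes at 2 months by the test, and at 12 months 12 did, most of them lower. In 5 lists with 62 genes, 57 were tested. At 2 months none passed between the genotypes by edgeR or DESeq2, while 0.0494% of all genes did by edgeR, and 6 of the 57 had an unadjusted p under 0.05. At 12 months, 10 were lower and 2 were higher by adjusted p, or 21.1% of the 57 where 12.5% of all genes passed. The median log2 fold change was -0.03, against 0.00 over all genes, and 24 of the 57 had a positive sign.

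Among the 4 pore-forming subunits, Gria3 was lower at 12 months (-0.26, standard error 0.0755, adjusted p = 0.0259 from edgeR's test), from 116.9 ± 13.3 to 97.8 ± 6.70 CPM. Gria1 (-0.10, adjusted p = 0.106), Gria2 (0.31, adjusted p = 0.104) and Gria4 (0.04, adjusted p = 0.603) did not pass. Of 12 tested auxiliary subunits, Shisa8, of a family that modulates how the channel desensitises, fell by 0.70 (adjusted p = 0.0253), from 34.5 ± 8.06 to 21.3 ± 3.20 CPM, and the TARP gene Cacng3 fell by 0.40 (adjusted p = 0.0337). These are 16.7% of the list, beside the 12.5% of all genes. Of 6 genes of assembly and surface control, Abhd6 (-0.31) and Porcn (-0.21) were lower, or 33.3%. These are changes of the same direction as Syndig1 and the opposite of Syndig1l.

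Of 17 scaffold and trafficking genes, 4 were lower at 12 months. Among them were Grip2, a scaffold that binds the tails of AMPA receptor subunits (-0.51, adjusted p = 0.00385, from 17.4 ± 1.59 to 12.3 ± 1.16 CPM), Camk2a (-0.34) and Epb41l1 (-0.15). One scaffold gene, Akap5, was higher (0.49, adjusted p = 0.0481), so that 29.4% of this list passed, where 12.5% of all genes did. Of 18 tested synaptic organisers, the neuronal pentraxin Nptx1 was lower (-0.17) and the adhesion gene Nlgn1 was higher (0.39, adjusted p = 0.0157), or 11.1%, below the share of all genes. With the fold change limit, Shisa8 and Grip2 were the only DEGs of the 57 between the genotypes at 12 months. That count of 2 was 6 without WT/WT replicate 1 of 12 months, 0 without WT/WT replicate 4, 1 without WT/WT replicate 2 or without 304Q/304Q replicate 1, 2, 4 or 5, and 1 without the libraries with choroid plexus markers.

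**Figure D5:**
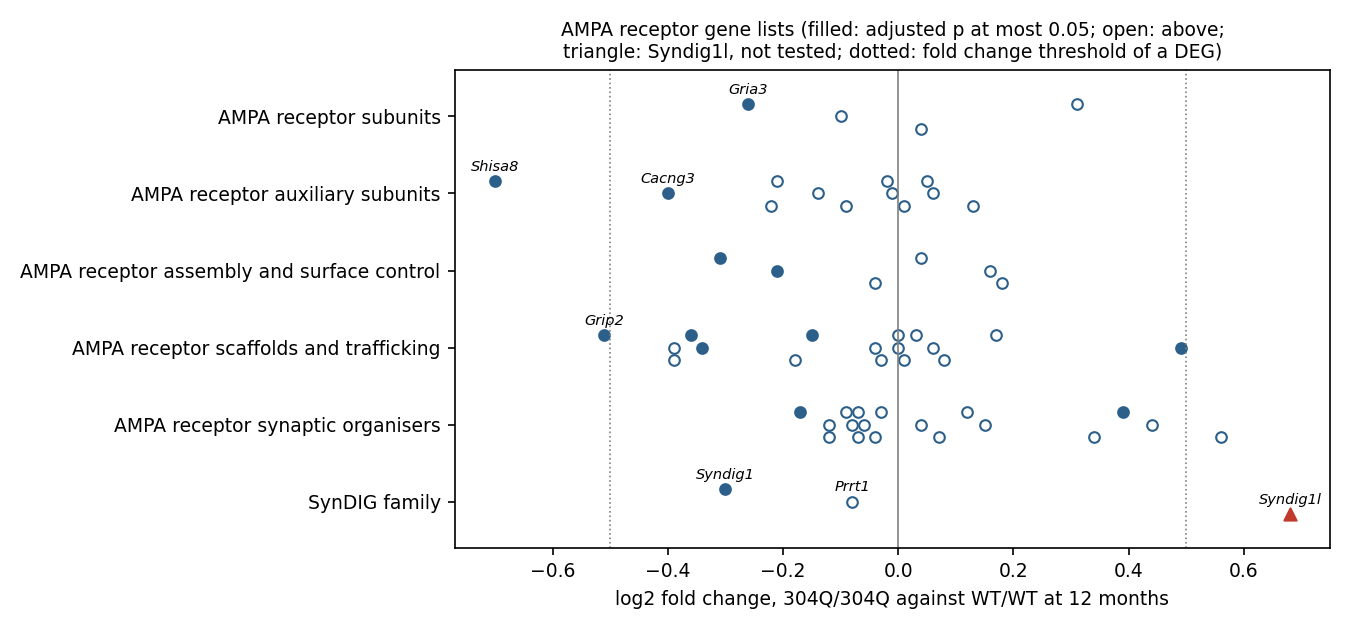
Log2 fold change of 304Q/304Q relative to WT/WT at 12 months (x axis) of the 57 tested genes in 5 lists of the AMPA receptor system and of the 3 tested SynDIG family genes (rows); filled points have an adjusted p of at most 0.05, and dotted lines mark the fold change limit of a DEG. Syndig1l, at 0.68 and shown without a test, lies to the right of all points of the lists, and Syndig1 (-0.30) lies with the filled points on the left. Syndig1l was chosen for its genotype difference, so nothing is read from its place relative to the lists.

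With age, 3 of the 57 were higher and 9 lower in WT/WT mice, where 11.5% of all genes passed, and 6 were lower and none higher in 304Q/304Q mice, where 7.26% passed. The median was -0.04 in both. In WT/WT mice Gria2 (-0.41, adjusted p = 0.0345) and Gria4 (-0.23, adjusted p = 0.0049) fell, and in 304Q/304Q mice Gria1 (-0.17, adjusted p = 0.00558), Gria3 (-0.25, adjusted p = 0.0405) and Gria4 (-0.18, adjusted p = 0.0194) fell. All 4 subunits had a negative sign with age in WT/WT as in 304Q/304Q mice, with 2 passing in the former and 3 in the latter, whereas Syndig1l rose. For the interaction, 2 of the 57 passed, Camk2a among them, where 1.95% of all genes did.

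The SynDIG proteins belong to a wider group, the dispanins, which share a CD225 domain with the interferon-induced transmembrane proteins. Of 11 other symbols listed for this group, among which Tusc5 is an older name of Trarg1, 3 were tested, Ifitm2, Ifitm3 and Ifitm10, and none passed between the genotypes at either age by edgeR or DESeq2, or at an unadjusted p under 0.05. Ifitm3, an antiviral gene of the interferon response, rose with age in both genotypes, by 0.73 (adjusted p = 0.0123) and 0.63 (adjusted p = 0.0306). It averaged 8.04 ± 2.08 CPM in WT/WT mice of 2 months and 13.3 ± 1.41 CPM at 12 months.

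After subtracting group means, the correlation of log2 CPM over the 20 libraries was 0.455 between Syndig1 and Syndig1l, 0.482 between Syndig1 and Prrt1 and 0.083 between Syndig1l and Prrt1. With the group means kept, that of Syndig1 and Syndig1l was -0.499. With the group means subtracted, the genes most like Syndig1 were Ccdc124 (r = 0.910), Smdt1 (0.894), Rpl13 (0.890), Cst3 (0.888) and Tpst2 (0.874). Those most like Prrt1 were Ptms (0.903), the NMDA receptor subunit gene Grin1 (0.875), Mrps12 (0.869), Pcbp4 (0.839) and Lrrc4b (0.833). Those most like Syndig1l were Zbtb17 (0.781), Rftn1 (0.765), Calb2 (0.744), Egln2 (0.740) and Snph (0.737). These values are descriptions, since the genes share the depth and tissue of each library. Calb2, which encodes the calcium-binding protein calretinin of granule and unipolar brush cells, was also higher in 304Q/304Q mice. It went from 458.3 ± 43.2 to 590.9 ± 41.7 CPM at 2 months (0.37, adjusted p = 0.0148 in the same fit) and from 456.1 ± 36.4 to 658.2 ± 22.5 CPM at 12 months (0.53, adjusted p = 3.36e-06). Of the other genes most like Syndig1l, Egln2 (-0.30, adjusted p = 0.00263) and Snph (-0.24, adjusted p = 0.00224) were lower at 12 months in this fit. Zbtb17 (-0.09, adjusted p = 0.514) and Rftn1 (0.26, adjusted p = 0.283) did not pass at that age. None of these other genes passed at 2 months.

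Markers of the cell types that a cerebellar sample can hold moved with the genotype at 12 months in several lists. Over all genes, 7.3% were lower by adjusted p at this age, 12.5% passed in either direction and 3.09% were DEGs. Among the 12 Purkinje markers, 5 were DEGs, led by Gng13 (-0.67), Pcp4 (-0.65), Pcp2 (-0.59) and Rgs8 (-0.53). Of 12 interneuron markers, 5 were lower, with Grm2 as the one DEG (-0.52). Of 11 markers of Bergmann glia and astrocytes, 5 were lower, with Gdf10 (-0.66), Gjb6 (-0.55) and Aldh1l1 (-0.52) as DEGs. Of 12 markers of myelinating oligodendrocytes, 5 were lower and 3 were DEGs, among them Mobp (-0.80) and Mal (-0.61). Of 4 tested markers of unipolar brush cells, 3 were lower, with Eomes (-2.06) as the DEG.

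In the other lists, few markers passed. Of 10 granule cell markers, Calb2 alone did. Of 9 tested microglial markers, C1qa alone passed between the genotypes at 12 months, and was higher in 304Q/304Q mice (0.33, adjusted p = 0.0443 from edgeR's test). With age, 7 of the 9 rose in each genotype. The shares of all genes that passed with age in either direction were 11.5% for WT/WT and 7.26% for 304Q/304Q mice. None passed in edgeR's test at 12 months among 7 markers each of oligodendrocyte precursors and of endothelial cells or among 4 tested markers of the choroid plexus, nor by DESeq2, with 1, 2 and 0 at an unadjusted p under 0.05. At 2 months, Calb2 and the oligodendrocyte gene Mal were the markers that passed edgeR's test in these lists. Since Syndig1l is known from the striatum, markers of striatal projection neurons were looked at as well. Drd1, Drd2, Adora2a and Tac1 were below 50 counts on average, and of the 5 markers tested, 3 were lower at 12 months, Rasd2 (-1.35), Ppp1r1b (-0.70) and Penk (-0.39). The other 2 had the sign of Syndig1l and did not pass, Rgs9 at 0.61 (adjusted p = 0.08 from edgeR's test) and Pde10a at 0.08 (adjusted p = 0.754). Of 17 markers of the adjoining brainstem, 2 were tested, Th was lower (-0.76), and no counts were found for Hoxd3 and Chat in any library. The part of these markers in the difference of Syndig1l was not tested.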

How the data were processed

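Cerebellar RNA of 20 mice was sequenced from polyA-enriched, stranded libraries. The authors mapped the reads with STAR on GRCm38 and summed them by gene with Rsubread, and the deposited values are these raw counts, 29200 Ensembl genes in all, with no normalization. Every column was matched to 1 mouse by its description in the labels, and 0 columns belonged to another series. Gene names, positions and sequences come from GENCODE M21, which held 29150 of the IDs.

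From the deposited counts, all 20 libraries were fitted in 1 model with a term per group by edgeR 4.0.16 (TMM scaling, glmQLFit, glmQLFTest, R 4.3.3). The 12153 genes averaging 50 counts or more were tested, with p-values adjusted by Benjamini and Hochberg over all of them. A DEG met an adjusted p of at most 0.05 together with a log2 change of 0.5 or more either way, after the methods of the study, which used DESeq2 with surrogate variables. The fit was tested on simulated data. CPM are counts per 1000000 counts of the TMM-scaled library, and log2 CPM used a prior count of 2. The biological coefficient of variation over all genes was 0.113. The replicates are separate mice, and no batch is given in the labels.

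The members and gene lists were chosen with earlier results of these data known. Named are the members, Atxn3, Gria1 to Gria4, DEGs of the lists in a genotype contrast (at most 4 per marker list), the 3 nearest neighbours and the 5 genes most alike. Other list genes and neighbours that passed were chosen after their values were seen. Alternative settings comprised DESeq2 1.42.0, its size factors in edgeR, 2 other filters, 3 surrogate variables from sva 3.50.0, the replicate number as a block, only the groups compared, other lengths and windows, and each library left out. Leaving out the 6 libraries with choroid plexus markers was added after seeing the data. The human libraries were not used here. A few list genes are counted but not named.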

Additional observations from a re-analysis of the deposited data

Results flagged for a closer look

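Tmem91 in 304Q/304Q mice of 12 months held 1 mouse far from the others. Replicate 2 had 3.51 CPM from 45 counts, and the other 4 mice had between 1.38 and 1.85 CPM from 19 to 23 counts. The gap between this mouse and the nearest other made up 0.779 of the group's whole range. Of the 16 groups of 5 mice looked at in this way (4 genes in 4 groups), this was the only one past the limit, and chance alone passes it in about 1 of 20 groups. The other 3 members showed no such mouse.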

How the results depend on the processing

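No alternative changed the direction or the call of the 12-month fall of Syndig1 or of the changes of Syndig1 and Syndig1l with age in 304Q/304Q mice. With 1 library left out, they ranged from -0.34 to -0.27, from -0.28 to -0.22 and from 0.50 to 0.61. The genotype differences of Syndig1l ranged from 0.48 to 0.61 at 2 months and from 0.59 to 0.79 at 12 months. The rise of Syndig1l in WT/WT mice lost its call with 3 surrogate variables (0.25, adjusted p = 0.263), with only the groups compared (0.42, adjusted p = 0.102) and without the libraries with choroid plexus markers (0.38, adjusted p = 0.109), and ranged from 0.31 to 0.51 with 1 library left out. With surrogate variables, the change of Syndig1 with age in WT/WT mice turned to -0.07, and Prrt1 passed the test with age in 304Q/304Q mice (-0.18, adjusted p = 0.0372). With 1 library left out, the 2-month difference of Syndig1 ran from -0.03 to 0.02 and changed sign, and its interaction ran from -0.33 to -0.26.

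Of 30 same-numbered pairs of libraries, 6 had a correlation above 0.1 (range -0.323 to 0.551). Pairs with different numbers were not compared, so this cannot decide whether the replicate numbers pair the mice. With the replicate block, the 12-month change of Syndig1 was -0.30 (adjusted p = 0.00339), and no call of a member changed.

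The DEGs among all genes at 2 months numbered 1, against 8 by DESeq2, 3 with no filter, 11 with surrogate variables, and 1 to 2 with 1 library left out (2 without 304Q/304Q replicates 2 or 5 of either age or WT/WT replicates 1 or 5 of 12 months). With age in WT/WT mice they numbered 314, against 194 with surrogate variables, 205 without WT/WT replicate 1 of 2 months and 595 without WT/WT replicate 1 of 12 months, the lowest and highest. For the interaction they numbered 114, against 173 by DESeq2, 75 without the choroid plexus libraries, 75 without WT/WT replicate 3 of 12 months, 265 without WT/WT replicate 1 of 12 months and 176 without 304Q/304Q replicate 5 of 2 months. DEGs of the AMPA receptor lists at 12 months numbered 2, 1 without the choroid plexus libraries and 0 to 6 with 1 library left out. With age in WT/WT mice they numbered 3, against 1 with surrogate variables, 0 with only the groups compared, 5 without the choroid plexus libraries and 0 to 6 with 1 library left out. The 6 came without WT/WT replicate 1 of 12 months, the 0 without its replicate 4, 5 without WT/WT replicates 4 or 5 of 2 months, and 1 without replicates 1, 2 or 3 of 2 months or 3 or 5 of 12 months. For the interaction 0 were DEGs, 1 with surrogate variables, 1 without the choroid plexus libraries and 0 to 2 with 1 library left out. The causes were not tested.

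Per kilobase of the longest coding transcript, the levels were 51.3 for Syndig1, 2.79 for Tmem91 and 142.2 CPM for Prrt1. Of the 5 genes most alike, 0 for Syndig1, 1 for Syndig1l and 1 for Prrt1 were shared when group means were kept. Tmem91 is below the filter, so it could not be recomputed under the alternatives that keep it. Of 706 recomputed values, 641 kept their direction and their side of the threshold or moved little.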
